A study of Mus musculus with 40 samples.

Results

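The genes described here encode, with few exceptions, the ligands, receptors, binding proteins, inhibitors and intracellular transducers of the growth factor pathways that pattern the mammalian embryo. Members were taken as every probe that mapped to 1 gene symbol beginning with Wnt, Fzd, Fgf, Bmp, Tgfb, Smad, Notch, Dll and a digit, Jag, Ptch, Igf, Acvr, Efn, Epha, Ephb, Dvl, Axin, Sfrp, Dkk or Pdgf, together with Ctnnb1, Shh and Smo. This gave 56 genes of the 6970 named on the arrays, measured by 72 probes. By pathway they comprised 9 genes of the Wnt group, 20 of the TGF-beta, activin and BMP group, 5 of the FGF group, 4 of the PDGF group, 10 of the IGF group, 2 of the Hedgehog group and 5 ephrins and Eph receptors. The remaining gene, Jagn1, was the only one caught by the Notch rule. Jagn1, Bmp2k, Fgfr1op2, Igf2bp1 and Igf2bp3 carry the prefix but are not ligands, receptors, inhibitors or transducers of the pathway, and they are kept as members by the rule. No probe with 1 symbol named a Notch receptor, a Delta or Jagged ligand, Shh, a Dvl or an Sfrp gene.

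Whole mouse embryos held in culture at 37 °C for 5 h with 40 µM 4-hydroperoxycyclophosphamide, a pre-activated form of the alkylating drug cyclophosphamide, were compared with untreated embryos cultured at the same temperature. Cyclophosphamide and its active forms damage DNA and cause malformations in exposed embryos, and the comparison asks how expression changed in them after this exposure. Total RNA of treated embryos was hybridised against total RNA of control embryos on 40 2-colour arrays of 2 array designs, 20 arrays of each, which all form 1 group of comparisons. Each design held 5 replicates, and each replicate had slides in both dye orientations with 2 readouts per slide. The sources used here do not give the strain, the embryonic stage, the number of embryos pooled or whether replicates came from separate litters, so p-values reflect only the variation among these samples and that variation may be technical.

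In the embryo, these pathways pass signals between neighbouring tissues. Wnt ligands bind Frizzled receptors and stabilise beta-catenin. TGF-beta, activin and BMP ligands bind paired receptor kinases that phosphorylate Smad proteins, and FGF and PDGF ligands act through receptor tyrosine kinases on the Ras-MAPK cascade. Insulin-like growth factors drive fetal growth through Igf1r and are held by binding proteins and cleared by Igf2r. Hedgehog ligands release Smo from its inhibitor Ptch1, and ephrins and Eph receptors signal at cell contacts.

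A value is the log2 ratio of treated over control embryos, relative to the median probe of the array. For each probe and replicate the ratios of both dye orientations were turned to the same direction and averaged, which gives 1 value per replicate. The sources used here do not name the numerator of the deposited ratio or the base of its logarithm, so treated over control is the likely direction and not a stated one, and folds assume base 2. Read this way, Ccng1, a gene that p53 induces after DNA damage, was higher in treated embryos in each array with a value for it. Its 2 probes on design 1 were measured in 19 arrays each and its probe on design 2 in 20. If the ratio ran the other way, every sign below would turn, and the 7 higher and 3 lower members of design 2 would become 3 higher and 7 lower. Among arrays of one orientation and different replicates, 1 of 40 pairs on design 1 with treated embryos in channel 1 and 5 of 40 pairs on design 2 with control embryos in channel 1 correlated below -0.3 over all probes, with lowest values of -0.31 and -0.54. In the other orientations none of 40 pairs did. One readout of replicate 4 on design 1 lacked 786 values. Before centring, the median over all probes of the replicate value lay between -0.38 and -0.10 on design 1 and between -0.66 and -0.12 on design 2. Everything below is therefore a change relative to the median probe of the array. Array ratios hold no level, and in whole embryos fewer cells of a type and less RNA per cell cannot be told apart.

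Most members stayed close to the median probe. On design 1, 22 of 27 member probes and on design 2, 40 of 45 lay within 0.2 log2 units of it, against 6016 of 7680 and 6410 of 7599 of all probes. The median member ratio was 0.0026 on design 1 and 0.021 on design 2, against 0.0049 and 0.017 over all probes. On design 1 no member passed an adjusted p of 0.05 in limma's test, where 0.651% of all probes did (50 of 7680). At an unadjusted p under 0.05, 7 of 27 member probes passed, against 33.0% of all probes. On design 2, 10 of 45 member probes passed (22.2%), against 27.8% of all probes, so the share was no higher than the background. At an unadjusted p under 0.05, 15 of 45 did, against 41.2%. Of the 10 calls at the adjusted threshold, 7 were higher in treated embryos, against 19.8% of all probes, and 3 were lower, against 8.07%. The higher members were Igf2, Igf2r, Igfbp3, Igfbp4, Bmp1, Bmpr1a and Smo, of which all but Igf2 had a mean below 0 without centring. The lower ones were Fgfrl1 and 1 of the 2 probes each of Fgfr2 and Tgfbr1, which were also below 0 without centring. The slide numbers in the labels form a 2000 and a 3000 series. Within the 2000 series, which held 3 replicates of design 2, 11 of 45 member probes were called, against 28.6% of all probes, and within the 3000 series, which held 2, only Igf2 was, against 10.7%. On design 1 no member was called within either series, where 0.781% and 0.0391% of all probes were. All 5 replicates had one sign for 5 of 27 member probes on design 1, against 31.1% of all probes, and for 12 of 45 on design 2, against 33.8%. The plots of replicate values by gene on designs 2 and 1 show how small most ratios were beside their spread.

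**Figure D1:**
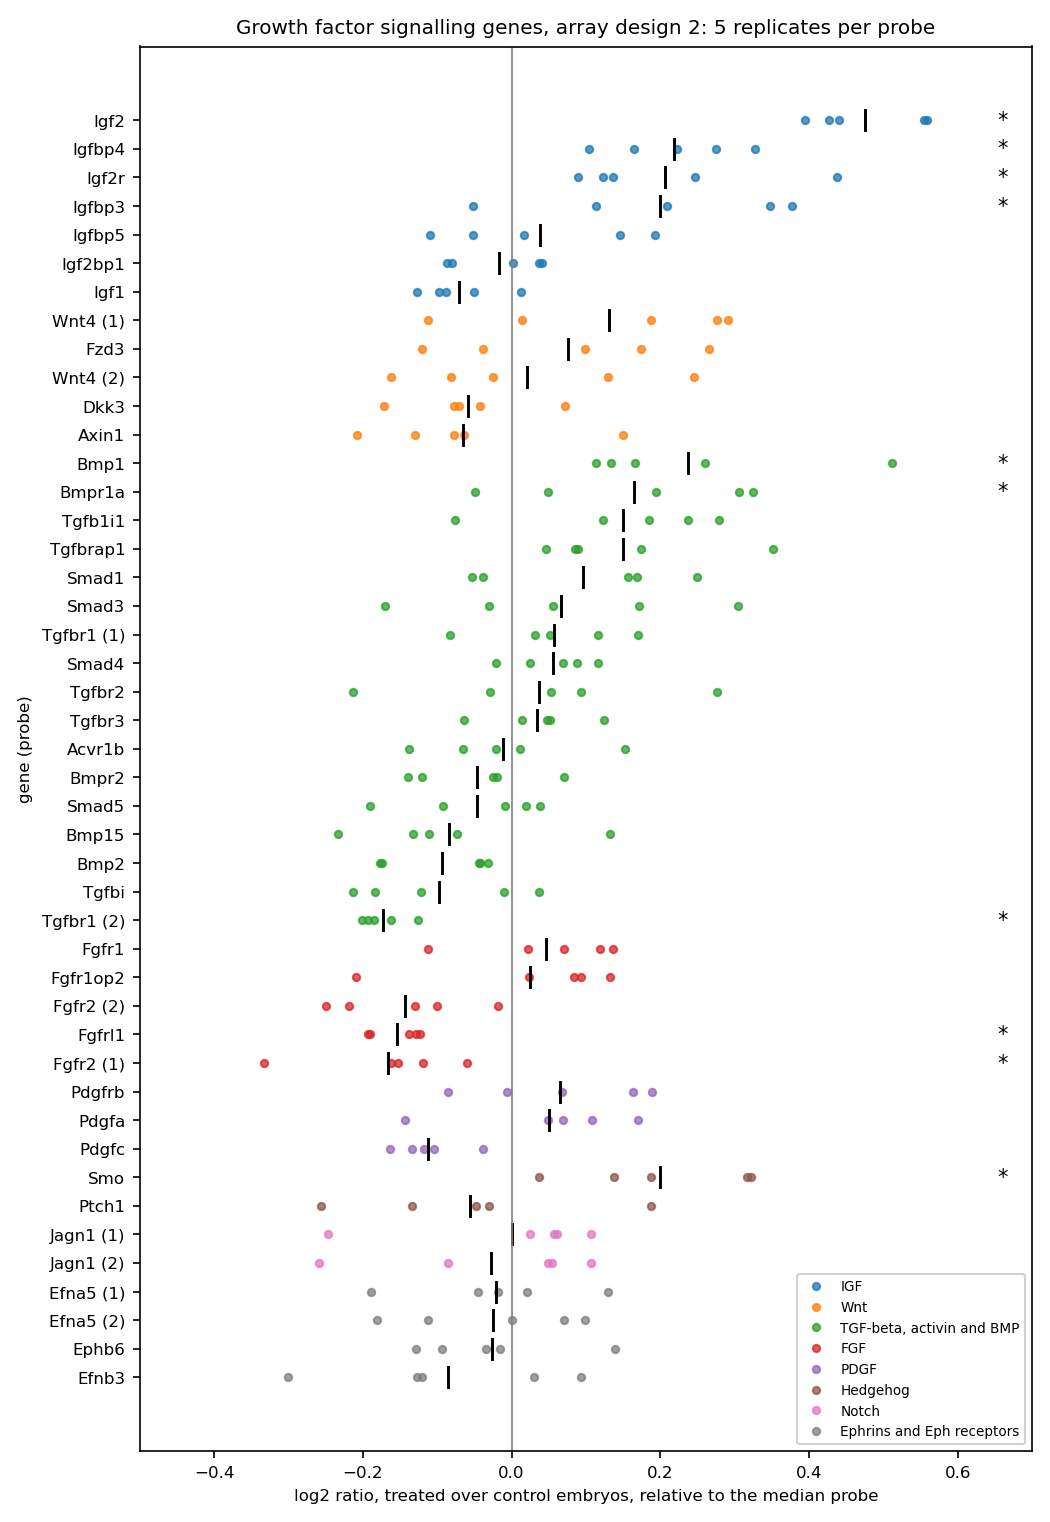
Log2 ratio of treated over control embryos (x axis, relative to the median probe) for the 45 member probes on array design 2 (rows, coloured by pathway). Points are the 5 replicates, black bars their means and asterisks mark the 10 probes past an adjusted p of 0.05. Igf2 stands apart at the top with all 5 replicates between 0.39 and 0.56, and without centring of the arrays 42 of the 45 probes, all of them lower, pass the same threshold.

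**Figure D2:**
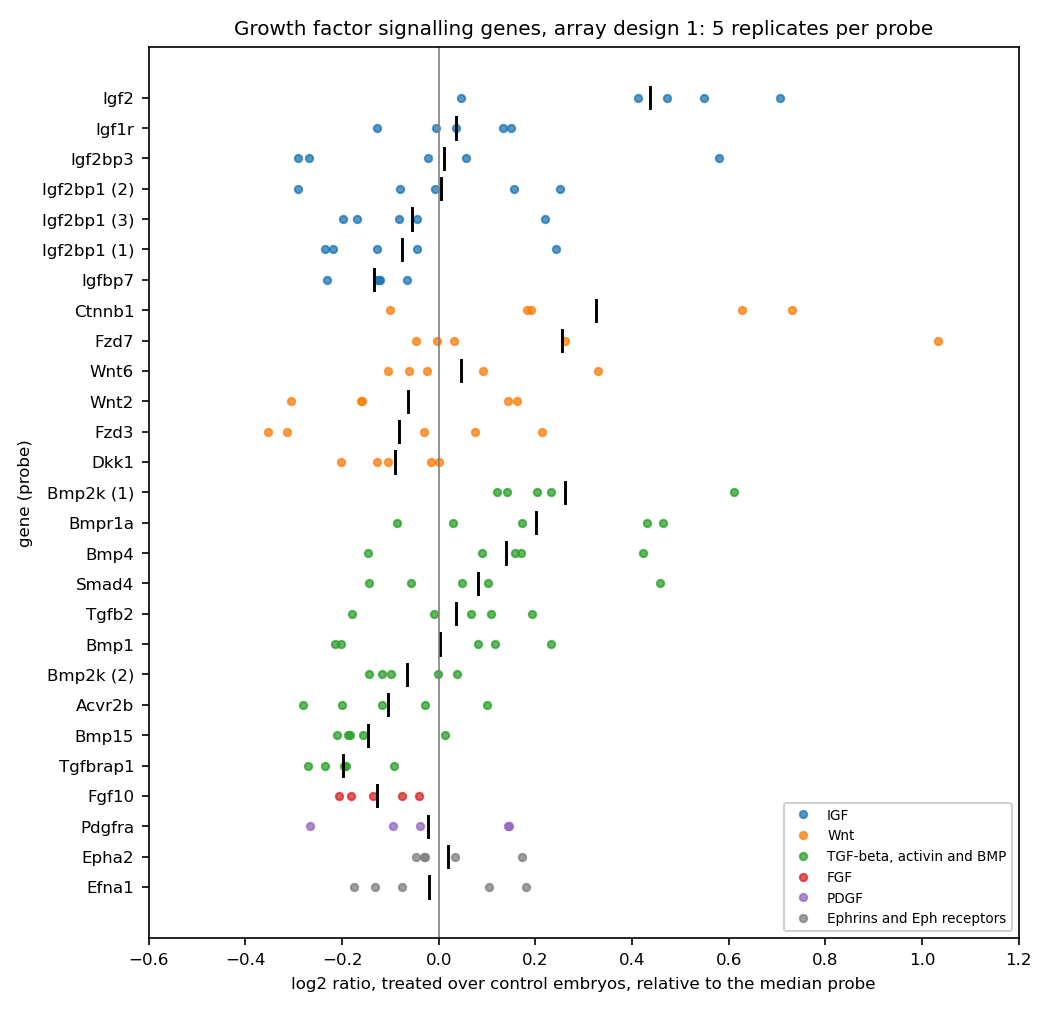
Log2 ratio of treated over control embryos (x axis, relative to the median probe) for the 27 member probes on array design 1 (rows, coloured by pathway), with the 5 replicates as points and their means as black bars. No probe passed an adjusted p of 0.05, and single high replicates of Fzd7 and Bmp2k probe 1 lie at 1.03 and 0.61, both of replicate 4. Without centring of the arrays 17 of the 27 probes, all of them lower, pass the threshold.

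The IGF group held the largest member ratio on both designs and 4 of the 7 higher calls on design 2. On design 2 its 7 probes had a median of 0.20, and none was called lower. Over all probes of that design 19.8% were called higher. With the dye trend described below removed, the median of the group was 0.042, with 1 higher and 1 lower call. Without centring its median was -0.23 and no probe was called higher. The 5 IGF genes on design 1 gave 7 probes with a median of 0.0057 and no call. Before the values, the start regions of the 4 called IGF genes are shown, since these members carry most of the higher calls. They are 300-base windows from 250 bases before to 50 after the annotated start (RefSeq, GRCm38.p6) and are written 5′ to 3′ on the strand of the gene. Capitals mark the GC box motif GGGCGG and the TATA box motif TATAAA on either strand. The matches of these 2 motifs do not overlap each other. Of the 4 Igf2 windows in the table, the one nearest the 3′ end of the gene is shown.
Igf2, chr7:142657447-142657746, minus strand: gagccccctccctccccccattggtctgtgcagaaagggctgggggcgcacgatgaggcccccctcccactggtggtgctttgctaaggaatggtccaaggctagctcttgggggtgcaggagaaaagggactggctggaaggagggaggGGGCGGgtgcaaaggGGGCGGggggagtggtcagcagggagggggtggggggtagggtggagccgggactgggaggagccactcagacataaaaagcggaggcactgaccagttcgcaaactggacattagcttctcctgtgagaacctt
Igf2r, chr17:12769657-12769956, minus strand: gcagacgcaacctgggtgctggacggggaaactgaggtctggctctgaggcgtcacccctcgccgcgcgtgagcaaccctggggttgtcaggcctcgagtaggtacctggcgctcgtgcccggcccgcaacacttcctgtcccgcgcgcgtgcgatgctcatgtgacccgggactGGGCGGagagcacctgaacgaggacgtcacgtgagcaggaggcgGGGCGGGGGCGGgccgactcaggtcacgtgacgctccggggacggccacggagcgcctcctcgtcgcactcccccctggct
Igfbp3, chr11:7213874-7214173, minus strand: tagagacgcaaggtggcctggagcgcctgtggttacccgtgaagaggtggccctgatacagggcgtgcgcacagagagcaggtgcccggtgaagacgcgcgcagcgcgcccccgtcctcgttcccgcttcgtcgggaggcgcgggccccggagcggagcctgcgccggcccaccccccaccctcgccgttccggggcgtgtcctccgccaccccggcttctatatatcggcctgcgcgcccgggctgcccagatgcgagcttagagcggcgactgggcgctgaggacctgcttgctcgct
Igfbp4, chr11:99040994-99041293, plus strand: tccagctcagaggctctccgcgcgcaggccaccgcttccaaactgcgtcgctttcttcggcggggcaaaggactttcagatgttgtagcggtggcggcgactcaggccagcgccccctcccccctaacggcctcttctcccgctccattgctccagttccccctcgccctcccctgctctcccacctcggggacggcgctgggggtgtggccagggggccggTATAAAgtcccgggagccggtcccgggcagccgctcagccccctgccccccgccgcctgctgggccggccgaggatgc
The Igf2 window holds 2 GC boxes, the Igf2r window holds 3, and the Igfbp3 window holds neither motif. The Igfbp4 window holds 1 TATA box and no GC box. Of the other Igf2 windows, 1 holds a single GC box and the others hold none. These are letter matches and not binding sites.

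Igf2, the fetal insulin-like growth factor transcribed from the paternal allele, was the member with the largest ratio. Its 5 replicate values on design 2 were 0.44, 0.56, 0.43, 0.39 and 0.56, all above the median probe and close together. Their mean was 0.48 ± 0.076 (SD, n = 5), a 1.39-fold difference, with an adjusted p of 1.13e-06 in limma's test. The mean was 0.31 with treated embryos in channel 1 only and 0.64 with them in channel 2 only. Neither orientation alone passed the threshold, with adjusted p-values of 0.265 and 0.0935 in limma's test. The mean was 0.48 on slides of the 2000 series and 0.47 on slides of the 3000 series. The call held without any 1 replicate, with means between 0.45 and 0.50.

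A different array carried a second measurement of Igf2. On design 1 the replicate values were 0.045, 0.47, 0.41, 0.55 and 0.71, again all above the median probe but with replicate 1 near it. Their mean was 0.44 ± 0.25 (SD, n = 5), a 1.35-fold difference, and the adjusted p was 0.0516, just above the threshold. The probe has no value in the incomplete readout of replicate 4. With that readout left out of the whole design the mean was the same and the adjusted p was 0.00506. Igf2 and probe 1 of Bmp2k were then the 2 of 27 member probes called, both higher, against 10.2% of all probes. The Igf2 ratio had an adjusted p in limma's test of 7.75e-04 on plain readouts only and 0.327 on B readouts only. Its mean was 0.67 (adjusted p = 0.0170) with treated embryos in channel 1 and 0.21 (adjusted p = 0.402) in channel 2. Leaving out 1 replicate in turn gave adjusted p-values between 0.0564 and 0.155, so it was not called in any of these fits.

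Igf2r, the receptor that clears Igf2 from the cell surface, had replicate values of 0.44, 0.14, 0.12, 0.25 and 0.089 on design 2. All 5 were higher, replicate 1 by the most. The mean was 0.21 ± 0.14 (SD, n = 5; adjusted p = 0.0114). It was 0.47 with treated embryos in channel 1 and -0.060 in channel 2, so the higher ratio was seen in one dye orientation. Without replicate 1 the mean was 0.15 with an adjusted p of 0.0790.

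Of the binding proteins that carry IGFs outside the cell, Igfbp4 and Igfbp3 were called. Differences between the binding proteins were not tested. Igfbp4 gave 0.33, 0.22, 0.27, 0.16 and 0.10 in the 5 replicates, all higher, with a mean of 0.22 ± 0.088 (SD, n = 5; adjusted p = 0.00458). This call held without any 1 replicate, but the mean was 0.059 (adjusted p = 0.412) with the dye trend described below removed and -0.21 without centring. Igfbp3 gave 0.38, 0.35, 0.11, 0.21 and -0.051, with replicate 5 on the other side of the median probe, and a mean of 0.20 ± 0.18 (SD, n = 5; adjusted p = 0.0200). Its adjusted p was 0.136 without replicate 1 and 0.0951 without replicate 2. Both genes had the same sign in both orientations, at 0.35 and 0.085 for Igfbp4 and 0.31 and 0.085 for Igfbp3. Igfbp5 did not pass, at 0.039 ± 0.13 (SD, n = 5). On design 1, Igfbp7 was below the median probe in each replicate, at -0.13 ± 0.060 (SD, n = 5), and did not pass (adjusted p = 0.104).

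The other ligand and the signalling receptor showed no call. Igf1, the ligand that predominates after birth, was at -0.070 ± 0.054 on design 2, and Igf1r, the kinase through which both ligands act, was at 0.037 ± 0.11 on design 1 (SD, n = 5 each). Of the RNA-binding proteins that carry the Igf2 name, Igf2bp1 was measured by 3 probes on design 1 and 1 on design 2. The means were -0.076, 0.0057, -0.055 and -0.017, and none passed. Igf2bp3 was at 0.011 ± 0.35 (SD, n = 5), a spread far larger than its mean.

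H19, the noncoding RNA transcribed from the maternal allele beside Igf2, was on the list of IGF and PI3K pathway genes and moved in the same direction. On design 2 it was measured by 7 probes, each called, with means between 0.52 and 0.63 and adjusted p-values between 2.36e-07 and 6.62e-07 in limma's test. Their replicate values lay between 0.32 and 0.84, all above the median probe, and each call held without any 1 replicate. The size differed with the dye orientation. Means of the 7 probes lay between 0.20 and 1.06 with treated embryos in channel 1 and between 0.084 and 0.94 in channel 2. On design 1 the single H19 probe gave 0.31, 0.67, 0.44, 0.68 and 1.10, with a mean of 0.64 ± 0.30 (SD, n = 5; adjusted p = 0.0496). That design 1 call was lost without replicate 1, 2, 3 or 5, with adjusted p-values of 0.0849, 0.117, 0.0647 and 0.0977. The plot of Igf2 and H19 sets the replicate values side by side.

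**Figure D3:**
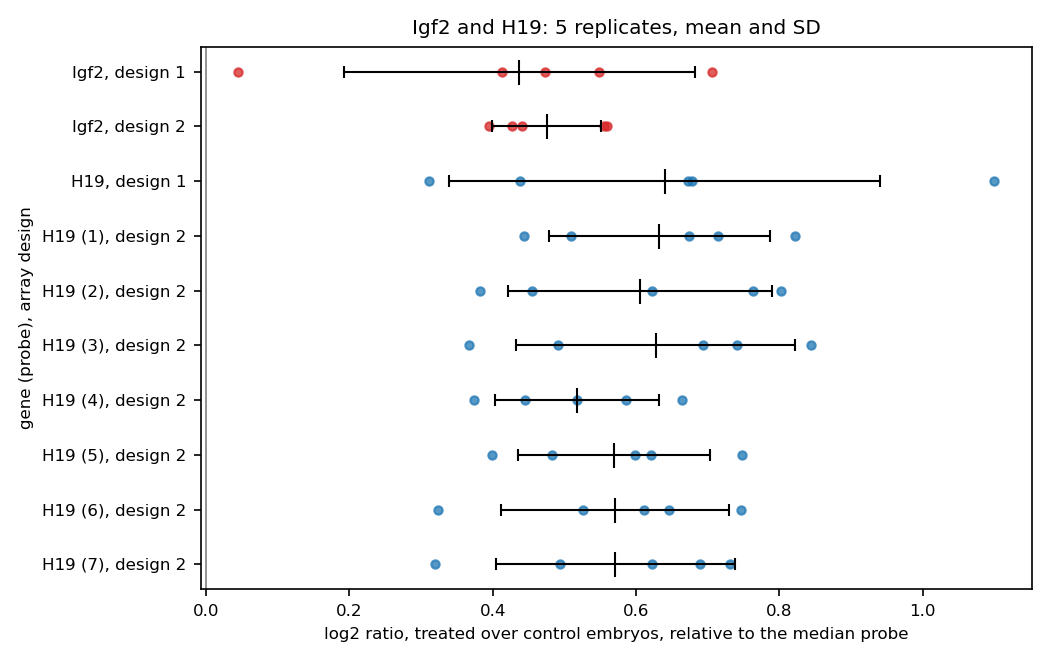
Log2 ratio of treated over control embryos (x axis, relative to the median probe) for the Igf2 probe of each array design and the 1 and 7 H19 probes of designs 1 and 2. Points are the 5 replicates, with their mean and SD as black bars, and each replicate of each probe lies above 0. Without centring of the arrays the means stay above 0 at 0.046 for Igf2 and between 0.088 and 0.20 for H19 on design 2, and none is called.

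Embryonic globin genes moved with Igf2 and H19 on design 2, while the other erythroid gene measured there did not. Of the 8 listed erythroid markers, 3 were measured there by 6 probes. Of these probes 5 were called higher, all of globins, against 19.8% of all probes. The 4 probes of Hbb-y, an embryonic beta-like globin, had means between 0.58 and 0.63, and Hba-x, an embryonic alpha-like globin, was at 0.58 ± 0.23 (SD, n = 5). Alas2, the enzyme of haem synthesis in red cells, was at -0.0018 and was not called. On design 1 the only erythroid probe, for the transcription factor Gata1, was at -0.058 ± 0.067 (SD, n = 5) and was not called. The other lists were measured almost only on design 1, where few probes of any kind were called. There the 5 probes for visceral endoderm and yolk sac lay between -0.17 and 0.49, the 6 for placenta and decidua between -0.26 and 0.24, and the 2 for neural tissue at 0.043 and 0.36. The single visceral endoderm probe of design 2 was at -0.044. The part of the erythroid genes in the Igf2 and H19 ratios was not tested.

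In the TGF-beta, activin and BMP group, 3 of 17 probes on design 2 were called, against 27.8% of all probes. None of 10 on design 1 was, against 0.651%. The higher ones were Bmp1 and Bmpr1a and the lower one was a probe of Tgfbr1. The group medians were 0.036 on design 2 and 0.019 on design 1.

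Among the ligands and the proteins that process them, Bmp1, a protease that matures procollagen and releases BMPs from their antagonists, was called. Its replicates on design 2 gave 0.51, 0.11, 0.13, 0.26 and 0.17, all higher and with replicate 1 well above the others. The mean was 0.24 ± 0.16 (SD, n = 5; adjusted p = 0.00574), from 0.047 and 0.43 in the 2 orientations, and the adjusted p was 0.0499 without replicate 1. The Bmp1 probe of design 1 did not show it. Its replicates gave -0.22, 0.081, 0.23, 0.12 and -0.20, with a mean of 0.0026 ± 0.20 (SD, n = 5), and its orientation means were 0.80 and -0.80, so its ratio turned with the channel. The BMP ligands Bmp2 (design 2, -0.094 ± 0.075) and Bmp4 (design 1, 0.14 ± 0.20) did not pass, and neither did Tgfb2 (design 1, 0.036 ± 0.14; SD, n = 5 each). Bmp15, an oocyte growth factor, was below the median probe on both designs, at -0.15 ± 0.090 and -0.084 ± 0.13 (SD, n = 5), and was not called. Tgfbi, an extracellular matrix protein that TGF-beta induces, was at -0.098 ± 0.11 (SD, n = 5) and was not called.

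Of the receptors, Bmpr1a, the type I receptor through which Bmp2 and Bmp4 act, gave 0.31, 0.32, 0.049, 0.19 and -0.049 on design 2. Replicate 5 was lower and the others were higher. The mean was 0.16 ± 0.16 (SD, n = 5; adjusted p = 0.0441), but it was 0.79 in one orientation and -0.46 in the other. Without replicate 1, 2 or 4 its adjusted p was 0.195, 0.178 or 0.107. On design 1 its probe gave -0.086, 0.029, 0.17, 0.43 and 0.46, with a mean of 0.20 ± 0.24 (SD, n = 5) that did not pass (adjusted p = 0.156). Orientation means there were 0.21 and 0.19.

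Tgfbr1, the type I receptor for TGF-beta, was measured by 2 probes on design 2 that differed in sign. Probe 2 gave -0.20, -0.19, -0.19, -0.13 and -0.16, all lower and tightly grouped, with a mean of -0.17 ± 0.031 (SD, n = 5; adjusted p = 0.0163). Probe 1 gave 0.17, -0.082, 0.12, 0.051 and 0.031, 4 of them higher, with a mean of 0.057 ± 0.095 (SD, n = 5; adjusted p = 0.448). The difference between the probes was not tested, and the gene has no single direction here. Without replicate 3 the adjusted p of probe 2 was 0.0649. The other receptors, Tgfbr2, the co-receptor Tgfbr3, Bmpr2, Acvr1b and, on design 1, Acvr2b, lay between -0.11 and 0.036 and none was called.

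The Smad transducers, which carry the signal to the nucleus, lay close to the median probe. Means on design 2 were 0.097 for Smad1, 0.066 for Smad3, 0.056 for Smad4 and -0.047 for Smad5. Smad4, the common partner of the others, was also on design 1, at 0.081 ± 0.23 (SD, n = 5). None was called. Tgfbrap1, a protein that binds TGF-beta receptors, had opposite signs on the designs. Its replicates were -0.093, -0.19, -0.24, -0.20 and -0.27 on design 1, all lower (adjusted p = 0.0516). On design 2 its mean was 0.15 ± 0.12 (SD, n = 5), with all 5 replicates higher (adjusted p = 0.0502). Neither passed the threshold, and the difference was not tested. Both ratios turned with the channel. With treated embryos in channel 1 and in channel 2, the means were -0.44 and 0.046 on design 1. On design 2 they were 0.56 and -0.26. With the dye trend described below removed, Tgfbrap1 was at -0.0046 on design 1 and 0.060 on design 2. Tgfb1i1, a focal adhesion protein also known as Hic-5, was at 0.15 ± 0.14 (SD, n = 5; adjusted p = 0.0551). Bmp2k, a kinase named for its induction by Bmp2, was measured by 2 probes on design 1, with means of 0.26 ± 0.20 and -0.065 ± 0.079 (SD, n = 5), and neither was called.

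The FGF group had a median of -0.14 on design 2. Of its 5 probes 2 were called, both lower. Over all probes of that design 8.07% were called lower and 27.8% in either direction. With the dye trend removed the median was -0.059 and none of its probes was called. Fgfr2, an FGF receptor needed for limb and lung budding, was measured by 2 probes. Probe 1 gave -0.16, -0.15, -0.33, -0.060 and -0.12, with a mean of -0.17 ± 0.10 (SD, n = 5; adjusted p = 0.0288). Probe 2 gave -0.25, -0.10, -0.22, -0.13 and -0.018, with a mean of -0.14 ± 0.093 (SD, n = 5; adjusted p = 0.0512). Both probes were read on the same 5 replicates, and in each replicate both lay below the median probe. For probe 1 the ratio was -0.53 in one orientation and 0.19 in the other, and for probe 2 it was -0.36 and 0.071. The call of probe 1 was lost without replicate 1, 2 or 3, with adjusted p-values of 0.0769, 0.0617 and 0.189.

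Fgfrl1, an FGF receptor that lacks the kinase domain, gave -0.19, -0.19, -0.13, -0.14 and -0.12. These values had the same sign and nearly the same size, with a mean of -0.15 ± 0.034 (SD, n = 5; adjusted p = 0.0300). Both orientations were lower, at -0.24 and -0.065. Without replicate 1, 2, 3 or 4 the adjusted p lay between 0.0719 and 0.0823. Fgfr1, an FGF receptor needed at gastrulation, was at 0.047 ± 0.099, and Fgfr1op2, named as a fusion partner of Fgfr1, was at 0.025 ± 0.14 (SD, n = 5 each). The only ligand, Fgf10, which starts limb and lung buds, was on design 1. Its replicates were -0.14, -0.041, -0.18, -0.21 and -0.076, all lower, with a mean of -0.13 ± 0.070 (SD, n = 5) that did not pass (adjusted p = 0.123).

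No PDGF gene was called. Pdgfc, a ligand needed for closure of the palate, gave -0.10, -0.13, -0.12, -0.038 and -0.16 on design 2, all lower, with a mean of -0.11 ± 0.047 (SD, n = 5; adjusted p = 0.106). The ligand Pdgfa was at 0.051 ± 0.12 and the receptor Pdgfrb at 0.066 ± 0.11 (SD, n = 5 each). Pdgfra, the receptor of neural crest and somite cells, gave -0.094, 0.14, 0.14, -0.039 and -0.27 on design 1, values on both sides of the median probe with a mean of -0.023 ± 0.17 (SD, n = 5).

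Of the Hedgehog pathway, Smo and Ptch1 were measured, both on design 2. Smo, the membrane transducer, gave 0.32, 0.32, 0.14, 0.19 and 0.037, all higher, with a mean of 0.20 ± 0.12 (SD, n = 5; adjusted p = 0.0116). Its orientation means had the same sign, at 0.29 and 0.11. The call was lost without replicate 1 or 2, with adjusted p-values of 0.0713 and 0.0595. Ptch1, the receptor that holds Smo inactive and is itself a target of the pathway, gave 0.19, -0.030, -0.13, -0.047 and -0.26. Only replicate 1 was above the median probe, and the mean of -0.056 ± 0.16 (SD, n = 5) did not pass (adjusted p = 0.507).

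No Wnt gene was called on either design. Ctnnb1, which encodes beta-catenin, had the largest mean of the group. Its replicates on design 1 were 0.19, 0.18, -0.10, 0.73 and 0.63, with replicates 4 and 5 far above the others and replicate 3 below the median probe. The mean of 0.33 ± 0.35 (SD, n = 5) had an adjusted p of 0.0970. Of the ligands, Wnt4 was measured by 2 probes on design 2. Probe 1 gave 0.28, 0.29, 0.19, 0.014 and -0.11, with a mean of 0.13 ± 0.18 (SD, n = 5; adjusted p = 0.109), and probe 2 had a mean of 0.021 ± 0.16. Wnt2 and Wnt6 on design 1 were at -0.064 ± 0.21 and 0.046 ± 0.17 (SD, n = 5 each). The receptor Fzd3 was at -0.081 ± 0.25 on design 1 and 0.076 ± 0.16 on design 2, and the receptor Fzd7 at 0.26 ± 0.45 on design 1 (SD, n = 5 each). The secreted inhibitor Dkk1 was at -0.090 ± 0.084 on design 1. On design 2, its relative Dkk3 was at -0.058 ± 0.087 and Axin1, the scaffold on which beta-catenin is degraded, at -0.066 ± 0.13 (SD, n = 5 each).

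Neither Jagn1 nor any ephrin or Eph gene was called. The 2 probes of Jagn1, a protein of the secretory pathway, had means of 0.00067 ± 0.14 and -0.027 ± 0.15 on design 2 (SD, n = 5), and probe 2 gave 0.11, 0.054, -0.086, 0.049 and -0.26. Efnb3, a transmembrane ephrin of the spinal midline, gave 0.093, -0.30, -0.12, 0.031 and -0.13, with a mean of -0.085 ± 0.15 (SD, n = 5). Ephb6, a receptor without kinase activity, was at -0.027 ± 0.10, and the 2 probes of Efna5 at -0.020 ± 0.12 and -0.025 ± 0.12 (SD, n = 5 each). On design 1, Epha2 gave -0.030, 0.033, 0.17, -0.047 and -0.029, with a mean of 0.020 ± 0.091 (SD, n = 5). Efna1, a ligand of Epha2, was at -0.020 ± 0.15 on that design (SD, n = 5), with orientation means of 0.76 and -0.80.

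Of the members, 8 genes had probes on both designs. These are different probes and replicate numbers are not known to mark the same embryos across designs, so the values are set side by side with no test. Igf2 was above the median probe in all 10 replicate values and Smad4 and Bmpr1a had positive means on both designs. Bmp15 and Igf2bp1 probes 1 and 3 had negative means on both. For Tgfbrap1 and Fzd3 the designs gave opposite signs, and Bmp1 was near 0 on design 1.

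**Figure D4:**
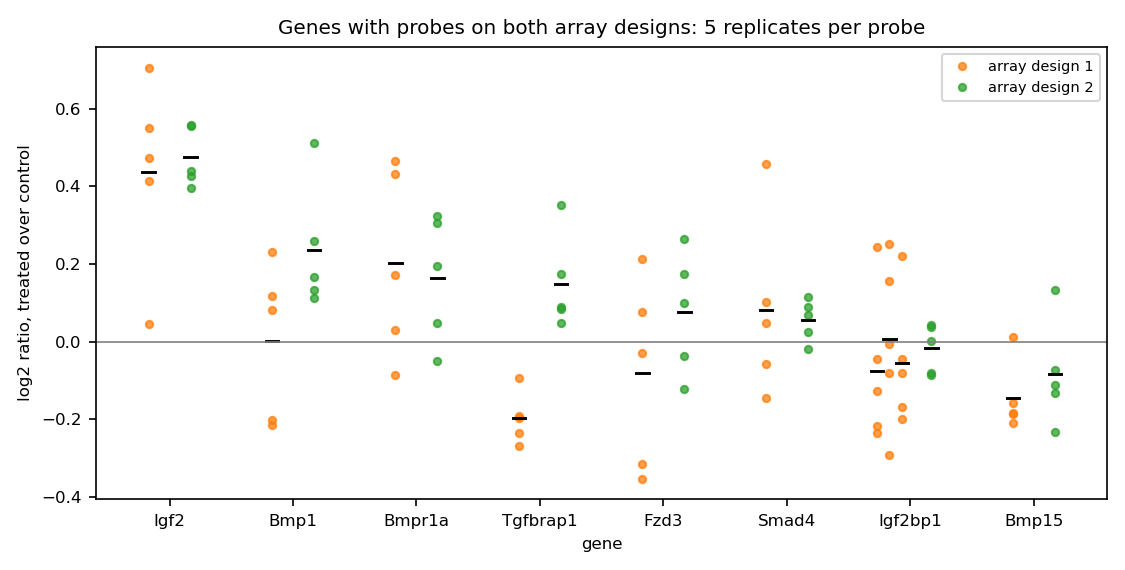
Log2 ratio of treated over control embryos (y axis, relative to the median probe) for the genes with probes on both array designs (x axis), with the 5 replicates of each probe as points and their means as black bars. Igf2 lies above 0 in all 10 values, Tgfbrap1 lies below 0 on design 1 and above 0 on design 2, and the other genes have values on both sides.

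Many member ratios turned with the dye of the label. The treated-over-control ratio had the same sign in both dye orientations for 9 of 27 member probes on design 1, against 29.1% of all probes, and for 12 of 45 on design 2, against 34.2%. Of the 10 called probes, 7 had the same sign in both orientations, and the exceptions were Igf2r, Bmpr1a and probe 1 of Fgfr2. Part of each replicate value followed a smooth function of the probes' dye profile, that is, of the part of the ratio that does not turn with the orientation. This trend took up between 34.0% and 81.5% of the variance over probes within a replicate on design 1 and between 35.3% and 61.6% on design 2. With it removed, 4 of 45 member probes were called on design 2, against 5.03% of all probes, and none of 27 on design 1, against 0.781%. On design 2 these were 2 higher, against 3.15% of all probes, and 2 lower, against 1.88%. Of the 10 calls, those of Igf2 and Bmp1 were among the 4. Igfbp3 was at 0.16 (adjusted p = 0.0654), and the other called probes lay closer to the median probe than before. Igfbp4 was then at 0.059, Igf2r at 0.042, Smo at 0.054 and Bmpr1a at -0.014. Of the lower calls, Tgfbr1 probe 2 was at -0.064, Fgfrl1 at -0.031 and Fgfr2 probe 1 at -0.021. Igf2 was then at 0.26 ± 0.12 (SD, n = 5; adjusted p = 0.0138) on design 2 and at 0.27 ± 0.19 (adjusted p = 0.120) on design 1. Bmp1 was at 0.18 ± 0.087 (adjusted p = 0.0312) on design 2. The calls made only after removal were both lower in treated embryos. Ptch1 was at -0.23 ± 0.061 (adjusted p = 0.00803) and Igf2bp1 at -0.19 ± 0.040 (adjusted p = 0.0122; SD, n = 5 each). The 7 H19 probes of design 2 stayed called, between 0.27 and 0.38. Of the 5 called globin probes 3 did, all of Hbb-y, and Hba-x did not. On design 1, removing the trend moved Ctnnb1 from 0.33 to 0.016 and Fzd7 from 0.26 to -0.14.

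**Figure D5:**
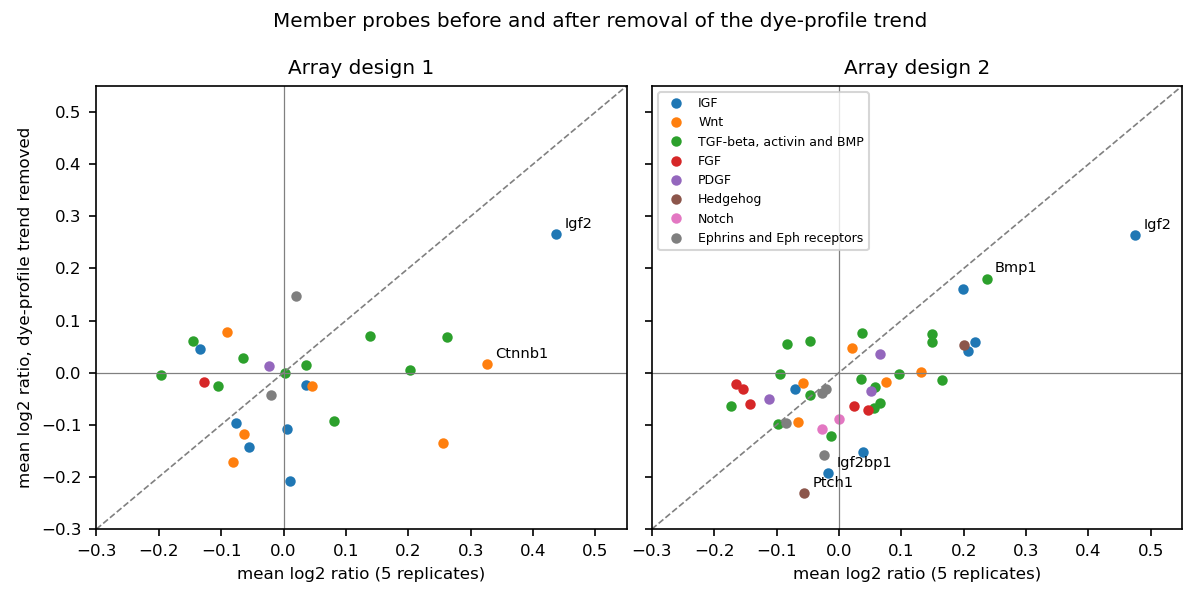
Mean log2 ratio of each member probe over 5 replicates before (x axis) and after (y axis) removal of the dye-profile trend, for array designs 1 and 2, coloured by pathway with a dashed line of equality. Igf2 stays the highest probe on both designs at 0.27 and 0.26, while Ctnnb1 lies at 0.016 and Ptch1 at -0.23 after removal.

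Without centring, 42 of 45 member probes were called on design 2, all lower, against 87.3% of all probes, and 17 of 27 on design 1, all lower, against 59.8%. Of the 10 calls on design 2, 4 kept their sign without centring. These were Igf2, at 0.046 (adjusted p = 0.675), and the lower calls of Fgfr2, Fgfrl1 and Tgfbr1.

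Genes that act with the members were taken from a list for each pathway. On design 2, 40 of 111 probes of such partners were called (36.0%), against 27.8% of all probes, with 30 higher and 10 lower, and on design 1, 2 of 95 were called, both higher, against 0.651%. With the dye trend removed the counts were 14 and 1, against 5.03% and 0.781% of all probes. Without centring 96 and 39 were called, all lower, against 87.3% and 59.8% of all probes. H19 alone gave 7 of the 40 calls. With probes of a gene averaged, 24 of 82 partner genes were called on design 2 (29.3%), against 25.8% of all genes and unnamed probes, and 9 of 74 on design 1 (12.2%), against 12.6%. The median partner ratio was 0.039 on design 2 and 0.063 on design 1.

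By pathway on design 2, 6 of 28 Wnt partner probes were higher and 4 lower. For this and each count by pathway below, the shares over all probes of design 2 were 19.8% higher and 8.07% lower. The Wnt partners with the smallest p were Csnk1a1, a casein kinase that marks beta-catenin for degradation, at 0.29 ± 0.15 (adjusted p = 9.32e-04), and the co-repressor Tle5, at 0.21 ± 0.087 (adjusted p = 0.00526; SD, n = 5 each). Another called probe of Csnk1a1 was at 0.13 without replicate 1 and lost its call (adjusted p = 0.111 in limma's test). Of 14 TGF-beta and BMP partner probes 3 were higher and 1 lower, led by Fkbp1a, which keeps type I receptors inactive, at 0.29 ± 0.15 (adjusted p = 7.81e-04), and the follistatin-like protein Fstl1, at 0.20 ± 0.093 (adjusted p = 0.00782; SD, n = 5 each). Of 16 Ras-MAPK partner probes 5 were higher and none lower. Braf, a kinase of the cascade, was at 0.23 ± 0.26 (adjusted p = 0.0198), with adjusted p-values of 0.188 and 0.106 without replicates 1 and 2. The phosphatase Ptpn11 was at 0.16 ± 0.10 (adjusted p = 0.0357; SD, n = 5 each), with 0.131, 0.0705 and 0.155 without replicates 1, 2 and 4. In the IGF and PI3K list 8 of 15 probes were higher and none lower, and 7 of the 8 were H19.

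Of 13 Notch partner probes 2 were higher and 2 lower. Mib1, the ubiquitin ligase that Notch ligands need, gave 0.43, 0.33, 0.33, 0.26 and 0.32, all higher, with a mean of 0.33 ± 0.064 (SD, n = 5; adjusted p = 5.74e-05). Itch, a ubiquitin ligase that acts on Notch receptors, gave -0.022, -0.34, -0.18, -0.062 and -0.65, all lower and unequal in size, with a mean of -0.25 ± 0.26 (SD, n = 5; adjusted p = 0.0122). Without replicates 2 and 5 its adjusted p was 0.0580 and 0.0633. Of 13 Hedgehog partner probes 3 were higher and 2 lower. Prkar1a, the regulatory subunit of protein kinase A, an inhibitor of the pathway, was at 0.36 ± 0.12 (adjusted p = 4.69e-05), and the ciliary protein Tulp3 at 0.34 ± 0.28 (adjusted p = 0.00138; SD, n = 5 each). Of 14 ephrin and Eph partner probes 3 were higher and 1 lower, led by the small GTPases Cdc42, at 0.36 ± 0.023 (adjusted p = 1.76e-05), and Rhoa, at 0.25 ± 0.070 (adjusted p = 0.00114; SD, n = 5 each). Another called probe of Cdc42 was at 0.17 without replicate 1 and 0.19 without replicate 4. It lost its call in both fits (adjusted p = 0.101 and 0.0506 in limma's test). With the dye trend removed, H19, Itch at -0.29, Prkar1a at 0.21 and Cdc42 at 0.17 stayed called of these named partners on design 2, and the others did not. Without centring, only H19 of these partners had means above 0. Prkar1a was then at -0.069, Cdc42 at -0.066 and Mib1 at -0.096.

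On design 1 the called partners were H19 and Ppp2r5d, a regulatory subunit of protein phosphatase 2A. Ppp2r5d gave 0.37, 0.30, 0.39, 0.47 and 0.61, all higher, with a mean of 0.43 ± 0.12 (SD, n = 5; adjusted p = 0.0318). Its adjusted p was 0.0849, 0.0718, 0.0647 and 0.0977 without replicates 1, 2, 3 and 5, and 0.0509 with the trend removed.

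The start regions of the members were compared with all start regions, a feature that the rule did not use. Of the 56 genes, 44 had an entry among the RefSeq start regions, with 56 windows of 300 bases. The motif GGGCGG was present on either strand in 38 of these windows (67.9%), against 35.7% of all 32851 windows, and TATAAA in 5 (8.93%), against 13.6%. The median number of CpG dinucleotides was 25 per member window and 7 over all windows. The windows compared with were those of all 27025 genes with an entry, on the arrays or not. These shares describe the windows and were not tested.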

How the data were processed

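RNA of treated and control mouse embryos was compared on 40 2-colour cDNA arrays, 20 of each of 2 designs. The tables deposited by the authors give a log ratio between the channels for each spot, read here as log2. The medians of the deposited columns show that they were not centred; scanner, background correction, normalization and log base stay unstated. Array signals were not given, so no filter on dim spots was possible and precision is set by the 5 replicates of a design.

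Here each array was centred on its median over all spots, spots of one accession were averaged (7680 and 7599 probes), ratios with control embryos in channel 1 were turned, and readouts and then orientations were averaged to 1 value per replicate. What tells the plain readout of a slide from its B readout is unknown. The replicate values of a probe, where at least 3 existed, entered a two-sided limma test of a mean of 0 (lmFit, eBayes; limma 3.58.1, R 4.3.3). Each design was fitted on its own, and p-values were adjusted over all its probes by Benjamini-Hochberg at a threshold of 0.05. The dye-profile trend was removed with mgcv 1.9.3 from 3 principal components of the part of the ratios that does not turn. The fit was tested on simulated data.

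Symbols came from the platform annotation and were checked against the RefSeq gene table of GRCm38.p6, which changed none of the members. Probes with several symbols were not used, among them 7 on design 1 and 4 on design 2 with a member symbol. All 72 member probes had values in 5 replicates. The members, the 7 partner lists and the marker lists for erythroid, visceral endoderm and yolk sac, placenta and decidua, neural, and mesoderm and heart genes were chosen with earlier results of these data known. No gene of the mesoderm and heart list had a probe. Replicate values are given for called members with a ratio of at least 0.3 in size, the smallest p of each pathway group and design, every probe of genes with several probes of which 1 was called, and Ctnnb1, Smo, Ptch1, Igf2 and Igf2r. Those of Fgfrl1, Igfbp3 and Igfbp4 were added after their values were seen. Of the partners, up to 2 per list and design with the smallest p were named. Alternatives changed the centring, scaling, readouts, orientations, slide series, variance prior, threshold, replicate block and replicates.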

Additional observations from a re-analysis of the deposited data

Results flagged for a closer look

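Among the 72 member probes, 4 had 1 replicate far from the other 4 replicates, measured by the gap to the nearest value against the whole range; chance alone flags about 1 in 20 probes. On design 1, replicate 1 of Bmp15 was at 0.0127, while the others lay between -0.2109 and -0.1571. Replicate 4 of design 1, which holds the incomplete readout, stood apart for Fzd7, at 1.0338 against -0.0461 to 0.2608, and for probe 1 of Bmp2k, at 0.6112 against 0.1207 to 0.2322. On design 2, replicate 2 of Jagn1 probe 1 was at -0.2466, while the others lay between 0.0245 and 0.1074. None of these probes was called over all arrays.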

How the results depend on the processing

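Of the 10 called members, Igf2, Igfbp4 and Bmp1 kept their call without each replicate in turn. The count of called member probes on design 2 (10) was 42 without centring, 6 with arrays scaled to one spread, 2 on plain readouts only, 0 with treated embryos in channel 2 only, 1 within the 3000 series, 3 at an adjusted p of 0.01 and 4 with the dye trend removed. Leaving out 1 replicate gave 4 (replicate 1), 5 (replicate 2) and up to 14 (replicate 5). Apart from settings that leave out a replicate, the alternatives not listed gave between 8 and 13. On design 1 (0) it was 17 without centring, 1 with scaled arrays, 1 on plain readouts only, 8 with treated embryos in channel 1 only, 4 with them in channel 2 only, 3 with single arrays and a replicate block, 4 at an adjusted p of 0.1 and 2 without the incomplete readout, and 0 otherwise. Partner counts were 1 and 39 of 95 probes on design 1 (2) and 14 and 96 of 111 on design 2 (40) with the trend removed and without centring, and 9 of 74 and 24 of 82 genes with probes of a gene averaged. Counting probes called in the analysis as reported or under the alternative, the sign turned without centring for Bmp1 (-0.24 on design 1, -0.19 on design 2), Epha2 (-0.22), Bmpr1a (-0.26), Igf2r (-0.22), Igfbp3 (-0.23), Igfbp4 (-0.21), Smo (-0.23), Tgfbr1 probe 1 (-0.37) and Wnt4 probe 1 (-0.30). With treated embryos in channel 2 only it turned for Bmp1 on design 1 (-0.80), Bmpr1a (-0.46), Igf2r (-0.060) and Fgfr2 probe 1 (0.19), and with the trend removed for Bmpr1a (-0.014). Of the 25 probes with replicate values, the sign of 1, 5 and 3 others, uncalled both ways, turned under these 3 settings. The cause of these changes was not tested.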
